A study of Rattus norvegicus with 6 samples.

Results

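Cell cycle genes were followed in 2 cell fractions of the rat renal inner medulla, the innermost zone of the kidney. The members were chosen by gene name: cyclins A, B, D and E, genes whose symbols begin with Cdk, Cdkn or Cdc, Mcm2 to Mcm9, Cenp, Aurk, Plk1 to Plk4, Bub1 and E2f1 to E2f8, with the proliferation genes Mki67, Top2a, Pcna, Rrm2, Tyms and Birc5. By this rule 118 of the 14217 genes measured were members, each given by the brightest of its probe sets (174 in all). Rrm2 has no probe set of its own in the annotation and has no value here.

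Per the labels, all rats were male Sprague-Dawley animals that received 1 mg of the loop diuretic furosemide 30 min before they were killed, so both fractions carry that treatment. The inner medulla was digested with collagenase B and hyaluronidase for 75 min at 37 °C. The pellet of a slow spin, rich in collecting duct cells, was the IMCD fraction (3 arrays), and the supernatant yielded the nonIMCD fraction (3 arrays). The labels give 7 rats and 3 isolations, do not tie rats to arrays or say which arrays came from 1 isolation, and give an age of 10 weeks for 5 arrays and of 6 weeks for IMCD replicate 1.

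As background, cells divide under the control of cyclin-dependent kinases (CDKs), which act when bound by a cyclin. D-type cyclins with Cdk4 and Cdk6 carry cells through G1, E2F factors then turn on the genes of DNA replication, and Cdk1 with cyclins A and B drives mitosis, while CDK inhibitors hold the kinases back. Most tubule cells of the adult kidney rest outside the cycle. The name rule also catches genes known mainly for other work, among them kinases of transcription and the effectors of the small GTPase Cdc42.

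The fractions are mixtures, and in such bulk samples fewer cells of a type and less RNA per cell cannot be told apart. Of 15 collecting duct principal cell markers 13 were higher in IMCD, with a summed intensity of 277479 to 296215 in that fraction against 140111 to 182796 in nonIMCD, where Aqp2 was bright as well. All 22 leukocyte markers were measured and 20 were lower in IMCD: they summed to 17875 to 21029 there, with Aif1, C1qb, Itgam, Cd3e, Cd3g and Gzmb at negative control level, against 247577 to 264150 in nonIMCD. All 12 measured endothelial markers and 7 of 13 interstitial and pericyte markers were also lower in IMCD, with sums of 16014 to 20263 against 81184 to 87503 and 5280 to 5815 against 34874 to 38594. Thin limb markers were lower for 3 of 5 and erythroid markers for 3 of 4. The log2 ratio of 3' to 5' signal, averaged over Actb, Gapdh and hexokinase, was 0.69 ± 0.03 in IMCD and 1.35 ± 0.14 in nonIMCD (SD, n = 3). These features differed between the same fractions that are compared below, and their part in the results was not tested.

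Several transcripts of the dividing cell were lower in the IMCD fraction. Among them were cyclin D2 (Ccnd2, 10.5-fold), the proliferation marker Mki67 (5.32-fold) and the mitotic activator Cdc20 (4.17-fold). The IMCD mean of Cdc20 (79.1) was close to the highest negative control (78.4). Its call held in 2 of 6 fits without 1 array, and its dimmer probe sets did not pass. The kinase Cdk18 and the CDK inhibitor Cdkn2b were among the 11 members that were higher there, a share near that of all genes. Cdkn2b was at negative control level in nonIMCD, and its call held in 1 of those 6 fits. Differences are IMCD minus nonIMCD on log2(intensity + 16), tested with limma, and a gene passed at an adjusted p under 0.05 over all probe sets. By this test 38 of 118 members (32.2%, against 25.8% of all genes) passed: 27 (22.9%) were lower and 11 (9.32%) higher in IMCD, against 15.7% and 10.0% of all genes. A difference of at least 2-fold was found for 17 lower members (14.4%, against 9.85% of all genes) and 4 higher members (3.39%, against 4.60%). The IMCD arrays lay wholly below the nonIMCD arrays for 49 members (41.5%, all genes 28.7%) and wholly above them for 22 (18.6%, all genes 20.0%).

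Of 78 members in the groups from cyclins to centromere proteins 24 (30.8%) were lower and 5 (6.41%) higher. Of the 40 others (further CDKs and their partners, CDC names and 4 more) 3 (7.5%) were lower and 6 (15.0%) higher. The shares of all genes were 15.7% and 10.0%. With median centring the counts were 12 lower and 11 higher among the 78 and 2 and 11 among the 40, beside 10.2% and 20.2% of all genes. With quantile normalization they were 9 and 7 among the 78 and 2 and 9 among the 40, beside 12.8% and 11.7% of all genes. Neither share of the 78 was then above that of all genes. The median difference over the 118 members was -0.19 (0.10 with median centring), and that of all genes -0.09 (0.19). The scaling of the arrays weighed on these counts. Centring each array on its median raised the median of all genes by 0.29. It gave 14 lower members (11.9%, all genes 10.2%) and 22 higher members (18.6%, all genes 20.2%). Quantile normalization raised that median by 0.11. It gave 11 lower members (9.32%, all genes 12.8%) and 16 higher members (13.6%, all genes 11.7%). After quantile normalization the share of lower members was under that of all genes. An intensity trend in the fit ended the calls of Aurka, Ccnb1, Ccna2 and Cenpk (adjusted p = 0.0544, 0.0711, 0.08 and 0.0627) and of Tyms, and added 11 lower and 8 higher calls. Without 1 array the lower calls numbered 16, 13 and 12 (IMCD replicates 1, 2 and 3) and 15, 12 and 14 (nonIMCD replicates 1, 2 and 3), and the higher calls 4, 7, 5, 5, 7 and 6 in that order. With the replicate number as a block in the fit, 10 members were lower and 6 higher. Shares of all genes are not given for the trend fit, the block fit or the fits without 1 array. Whether these changes were particular to the members was not tested. Lower in all 6 fits without 1 array and under all 3 scalings were Ccnd2, Cdc42ep1, Cdc42ep3, Cdkn1c, Cdkn2c, Cenpe, Mcm6 and Mki67. Higher in all of these fits and scalings were Cdc42ep2, Cdk18 and Cdkn2a. Both fraction means of Cdkn2a and the IMCD mean of Cenpe were at negative control level. The sign of the difference was the same in all 13 alternative fits that tested the gene for each of the 38 called members. These members were chosen by their test on the same arrays, so the stable sign is no independent support. An intensity trend, the replicate number as a block and leaving out dim probe sets cannot change a difference.

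**Figure D1:**
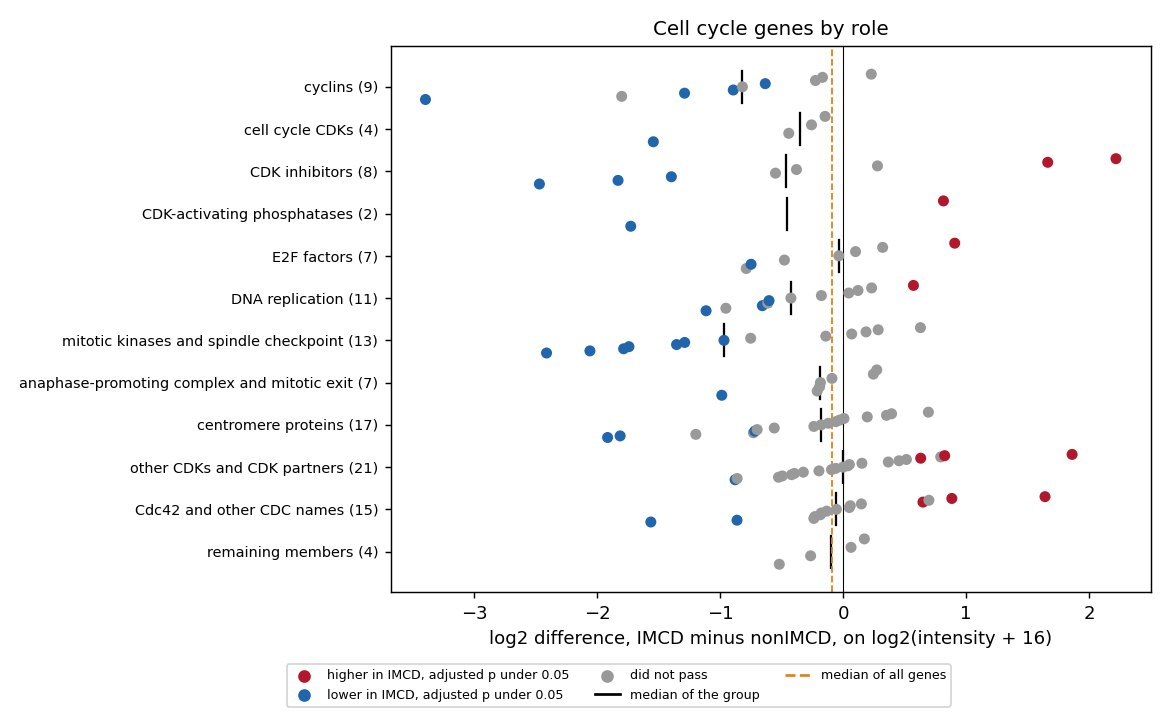
Log2 difference (IMCD minus nonIMCD, on log2(intensity + 16), x axis) of each of the 118 cell cycle genes by role (y axis, number of genes in brackets), with the median of each role and of all genes. Ccnd2 lies furthest to the left at -3.40, followed by Cdkn3 at -2.47 and Mki67 at -2.41, and 8 of the 11 higher calls lie among the CDK inhibitors and the groups of other CDKs and of CDC names.

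Mitotic kinases, spindle checkpoint genes and proliferation markers were lower in IMCD for 7 of 13 members, with 0 higher and a median of -0.97. Mki67, a nuclear protein of all cycling cells, had intensities of 295, 100.04 and 229 on IMCD arrays 1 to 3 and 878, 933 and 1553 on nonIMCD arrays 1 to 3. Every nonIMCD array was brighter than every IMCD array, and the difference was -2.41 ± 0.43 (SE, adjusted p = 0.0129), with a 95% interval of -3.46 to -1.36. When each array was left out in turn the adjusted p for Mki67 was 0.0186 to 0.0401.

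Top2a, the topoisomerase that untangles chromosomes for mitosis, read 227, 219 and 125 on IMCD arrays 1 to 3 and 430.3, 424 and 671 on nonIMCD arrays 1 to 3. Its groups did not overlap (-1.35 ± 0.29 SE, adjusted p = 0.0247). A second, dimmer probe set of Top2a gave -1.70 (adjusted p = 0.00845). Cdc20, which activates the anaphase-promoting complex, had 95.6, 115 and 26.2 on IMCD arrays 1 to 3 and 292, 372 and 358 on nonIMCD arrays 1 to 3. The groups were apart here too (-2.06 ± 0.44 SE, adjusted p = 0.0244), and IMCD array 3 was the lowest. The 4 dimmer probe sets of Cdc20 ranged from -1.17 to -0.36 and did not pass.

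The kinases of the group were less even between arrays. Plk1, the polo-like kinase of mitotic entry, read 147, 40.8 and 45.6 on IMCD arrays 1 to 3 and 183, 320.0 and 304 on nonIMCD arrays 1 to 3. The first IMCD array stood near the nonIMCD values while the others lay under the highest negative control (78.4), and the difference was -1.74 ± 0.46 (SE, adjusted p = 0.0467). As the IMCD mean was at negative control level, nonIMCD was at least 2.94-fold brighter. Bub1, a spindle checkpoint kinase, had 117, 117 and 55.6 on IMCD arrays 1 to 3 and 264, 188 and 308 on nonIMCD arrays 1 to 3, a difference of -1.29 ± 0.31 (SE, adjusted p = 0.0357). Its relative Bub1b read 7.92, 17.5 and 7.22 on IMCD arrays 1 to 3 and 35.6, 66.6 and 163 on nonIMCD arrays 1 to 3, with a difference of -1.78 ± 0.47 (SE, adjusted p = 0.0442), and no fold is given for so dim a signal. Aurka, the spindle pole kinase, had 95.5, 148 and 78.2 on IMCD arrays 1 to 3 and 255, 185 and 222 on nonIMCD arrays 1 to 3, which gave -0.97 ± 0.25 (SE, adjusted p = 0.041).

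Other mitotic genes did not pass. Birc5 (survivin), a chromosomal passenger protein, read 189.6, 175 and 229 on IMCD arrays 1 to 3 and 165, 207 and 147 on nonIMCD arrays 1 to 3, and its groups overlapped (0.19, adjusted p = 0.512, 95% interval -0.25 to 0.62). Aurkb, the kinase of the same complex, had -0.75 (adjusted p = 0.221), with nonIMCD array 2 inside the IMCD range. Plk2, a stress-responsive member of the polo family, was brighter on every IMCD array and did not pass (0.63, adjusted p = 0.0576). Values for Aurkc, Plk3 and the centriole kinase Plk4 were -0.14, 0.28 and 0.07, all with overlapping groups. Of the 7 calls, that of Mki67 held in all 6 fits without 1 array, those of Top2a, Cdc20 and Bub1b in 2, those of Plk1 and Aurka in 1 and that of Bub1 in 0 (adjusted p 0.0516 to 0.103). Centring on the median left Mki67, Cdc20 and Top2a lower and made Plk2 a higher call (0.92, adjusted p = 0.0172), and quantile normalization left Mki67 and Cdc20.

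**Figure D2:**
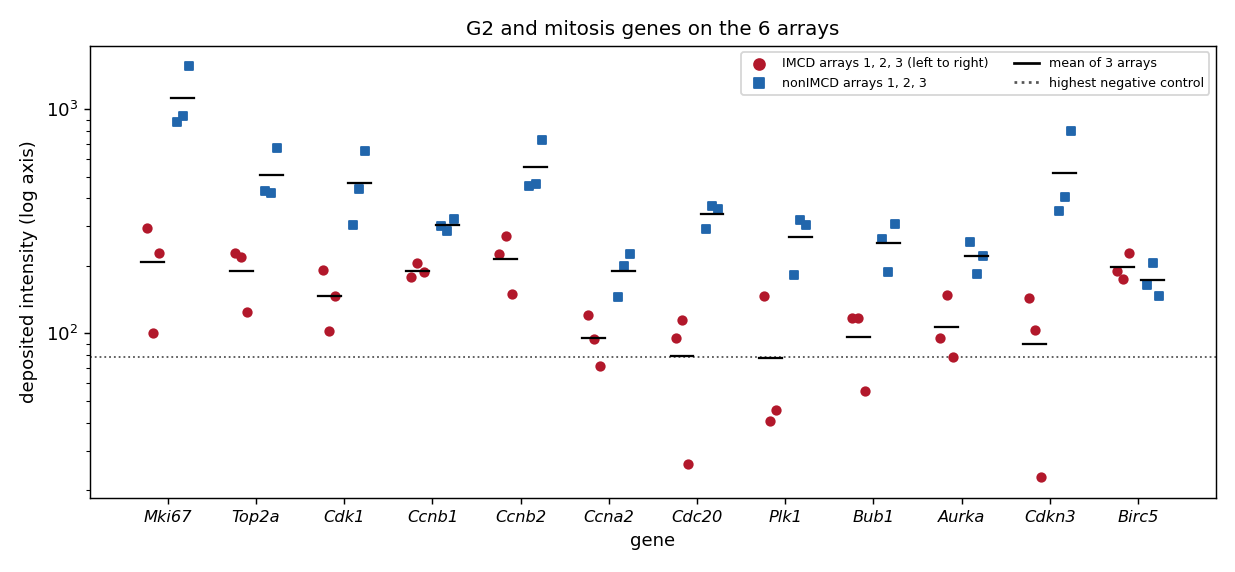
Deposited intensity (log y axis) of 12 genes of G2 and mitosis (x axis) on the 3 IMCD arrays (circles) and 3 nonIMCD arrays (squares), with the mean of each fraction and the highest negative control (dotted line, 78.4). The fractions are apart for every gene shown but Birc5, and nonIMCD array 3 is the brightest for Mki67, Top2a, Cdk1 and Cdkn3.

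Promoters are shown for 4 genes of the dividing cell that were lower, all of them with both motifs named here. The RefSeq windows of the GRCr8 assembly (250 bases before to 50 after a start) were searched on both strands for TTTGAA, the core of the cell cycle genes homology region, and CCAAT, the box bound by NF-Y, motifs known from promoters of G2 and mitosis genes. The 250 bases before the start of 4 of the lower members are printed 5' to 3', with both motifs in capitals, read on the minus strand as TTCAAA and ATTGG.
Mki67 (chr1:199952594-199952843, minus strand): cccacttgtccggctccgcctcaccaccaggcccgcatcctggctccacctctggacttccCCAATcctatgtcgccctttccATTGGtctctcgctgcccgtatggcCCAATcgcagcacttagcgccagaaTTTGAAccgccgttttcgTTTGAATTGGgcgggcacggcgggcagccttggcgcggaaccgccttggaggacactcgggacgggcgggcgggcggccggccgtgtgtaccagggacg
Cdc20 (chr5:137255800-137256049, minus strand): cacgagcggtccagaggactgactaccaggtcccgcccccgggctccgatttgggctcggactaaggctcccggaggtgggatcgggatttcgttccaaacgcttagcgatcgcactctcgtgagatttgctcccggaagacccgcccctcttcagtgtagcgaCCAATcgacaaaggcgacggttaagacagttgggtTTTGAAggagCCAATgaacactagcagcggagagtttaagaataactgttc
Cdk1 (chr20:19265043-19265292, plus strand): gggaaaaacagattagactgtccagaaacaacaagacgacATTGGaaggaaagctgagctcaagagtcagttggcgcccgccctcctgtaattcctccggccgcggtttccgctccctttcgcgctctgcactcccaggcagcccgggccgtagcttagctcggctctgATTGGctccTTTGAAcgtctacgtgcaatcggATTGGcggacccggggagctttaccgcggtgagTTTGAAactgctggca
Top2a (chr10:84473094-84473343, minus strand): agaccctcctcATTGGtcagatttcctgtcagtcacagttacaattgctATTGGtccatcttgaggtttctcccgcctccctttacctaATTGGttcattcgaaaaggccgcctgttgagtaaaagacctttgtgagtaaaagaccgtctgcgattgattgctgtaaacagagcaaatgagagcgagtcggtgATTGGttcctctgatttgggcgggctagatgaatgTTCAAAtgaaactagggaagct
In these stretches Mki67 holds 2 TTTGAA and 4 CCAAT matches, Cdc20 holds 1 and 2, Cdk1 holds 2 and 3, and Top2a holds 1 and 4. The second TTTGAA of Mki67 shares 1 base with a CCAAT match on the other strand. The first TTTGAA begins 117 bases before the start of Mki67, 51 before Cdc20, 72 before Cdk1 and 22 before Top2a.

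Of the 27 lower members 22 had a window in the table: 8 (36.4%) held TTTGAA, 17 (77.3%) CCAAT and 7 (31.8%) both, against 19.4%, 39.6% and 7.96% of 27457 genes. Besides the 4 printed, Plk1, Ccnb2 and Cdkn3 held both. Other lower mitotic genes did not: Bub1b held only TTTGAA, Ccnb1 only CCAAT, and Aurka and Bub1 neither. Of the 11 higher members 10 had a window, with TTTGAA in 3, CCAAT in 2 and both in 0. Among 65 members that did not pass the shares were 15.4%, 46.2% and 7.69%. The shares also differed by role, whatever the call. They were 58.3%, 58.3% and 41.7% for 12 genes of the mitotic kinase and spindle checkpoint group. For 5 cyclins they were 20.0%, 60.0% and 20.0%, and for 10 DNA replication genes 10.0%, 70.0% and 0.0%. Call and role were not separated here. The E2F site GGCGGGAA was found in 2 of the 22 lower members (9.09%), Mcm3 and Cdkn2c, in 0 of the 10 higher and in 2.15% of all genes. These matches are letters in a window and describe no binding.

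Cyclins were lower in IMCD for 4 of 9 members, with 0 higher and a median of -0.82 (-0.53 with median centring and -0.62 with quantile normalization). Ccnd2, a D-type cyclin of G1, had 144, 135 and 162 on IMCD arrays 1 to 3 and 1711, 1652 and 1731 on nonIMCD arrays 1 to 3. Arrays of a fraction lay close together and the fractions far apart, with a difference of -3.40 ± 0.12 (SE, adjusted p = 0.000204), the largest of all members in either direction under the reported scaling. Leaving out 1 array gave an adjusted p of 0.00145 to 0.00301.

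The other D-type cyclins did not share this. Ccnd1 read 5819, 4025 and 3289 on IMCD arrays 1 to 3 and 6146, 5547 and 3209 on nonIMCD arrays 1 to 3, with overlapping groups and -0.17 (adjusted p = 0.763), and its 2 dimmer probe sets gave -0.41 and -0.31 without passing. The sign for Ccnd1 was positive with median centring (0.12), without IMCD replicate 3 (0.02) and without nonIMCD replicate 1 (0.01). Ccnd3 had 2215, 2252 and 2168 on IMCD arrays 1 to 3 and 1819, 2032 and 1815 on nonIMCD arrays 1 to 3, brighter on every IMCD array without passing (0.23, adjusted p = 0.231), and it passed under median centring (0.52, adjusted p = 0.0267).

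Cyclins of G2 and mitosis were lower. Ccnb1, the main mitotic cyclin, read 178, 205 and 188 on IMCD arrays 1 to 3 and 301, 287 and 325 on nonIMCD arrays 1 to 3, a difference of -0.63 ± 0.12 (SE, adjusted p = 0.0183), and a dimmer probe set had -0.83 (adjusted p = 0.217). Ccnb2 had 226, 271 and 151 on IMCD arrays 1 to 3 and 456, 464 and 730.4 on nonIMCD arrays 1 to 3, with -1.29 ± 0.28 (SE, adjusted p = 0.026). Ccna2, the cyclin of S phase and G2, read 120.2, 94.2 and 71.9 on IMCD arrays 1 to 3 and 146, 201 and 225 on nonIMCD arrays 1 to 3, which gave -0.89 ± 0.23 (SE, adjusted p = 0.0445). All 3 had groups apart, and their calls held in 2, 1 and 1 of the 6 fits without 1 array. With median centring and quantile normalization Ccnb1 (adjusted p = 0.0916 and 0.107) and Ccna2 (adjusted p = 0.11 and 0.13) did not pass, and Ccnb2 did not pass after quantile normalization (adjusted p = 0.0575).

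Among E-type cyclins, which act at the entry to S phase, Ccne2 had 215, 50.6 and 141 on IMCD arrays 1 to 3 and 579, 318 and 495 on nonIMCD arrays 1 to 3. The groups were apart and the spread in IMCD wide, and the difference of -1.80 ± 0.50 (SE) lay just over the threshold (adjusted p = 0.0513), while a second probe set gave -0.10. Ccne1 had overlapping groups (-0.23, adjusted p = 0.658), with 0.06 under median centring and 0.05 after quantile normalization. Ccna1, a cyclin known from the germ line, lay at negative control level in both fractions.

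Of the 4 kinases of the cycle only Cdk1 passed. Cdk1, which drives entry into mitosis, had 192, 102 and 147 on IMCD arrays 1 to 3 and 306, 442 and 655 on nonIMCD arrays 1 to 3. All IMCD arrays were below all nonIMCD arrays, with a difference of -1.54 ± 0.34 (SE, adjusted p = 0.0254) that did not pass after quantile normalization (-1.27, adjusted p = 0.0531) and held in 2 of 6 fits without 1 array. Cdk2, the partner of cyclins E and A, read 312, 276 and 296 on IMCD arrays 1 to 3 and 373, 458 and 390.4 on nonIMCD arrays 1 to 3, apart but not past the threshold (-0.44, adjusted p = 0.0708). Partners of the D-type cyclins had overlapping groups: Cdk4 gave -0.15 (adjusted p = 0.468) with 0.14 under median centring, and Cdk6, near the negative controls, gave -0.26 (adjusted p = 0.468) with 0.03 under median centring.

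CDK inhibitors divided, with 2 of 8 higher and 3 lower in IMCD. On the higher side was Cdkn2b (p15), an inhibitor of Cdk4 and Cdk6, with 210.1, 189 and 284 on IMCD arrays 1 to 3 and 22.2, 89.9 and 18.1 on nonIMCD arrays 1 to 3. Every IMCD array was above every nonIMCD array, and the difference was 2.22 ± 0.46 (SE, adjusted p = 0.0221). The nonIMCD mean was at negative control level, so IMCD was at least 2.55-fold brighter, and the call held in 1 of 6 fits without 1 array (adjusted p 0.00496 to 0.0725). Cdkn2a, the neighbouring inhibitor, read 70.3, 49.0 and 45.8 on IMCD arrays 1 to 3 and 5.19, 6.83 and 6.60 on nonIMCD arrays 1 to 3. Both fractions were under the highest negative control, so no fold is given, although the groups were apart and the test passed (adjusted p = 0.00192).

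Lower in IMCD was Cdkn2c (p18), of the same family, with 386, 366 and 284 on IMCD arrays 1 to 3 and 1267, 1316 and 1198 on nonIMCD arrays 1 to 3. The groups were tight and far apart (-1.83 ± 0.16 SE, adjusted p = 0.00118), while a dimmer probe set of a type that can match other transcripts gave 0.10 (adjusted p = 0.682). Cdkn1c (p57), an inhibitor of the Cip/Kip family, had 2116, 2016 and 2664 on IMCD arrays 1 to 3 and 6502, 5451 and 5930.2 on nonIMCD arrays 1 to 3, lower on every IMCD array, with -1.40 ± 0.16 (SE, adjusted p = 0.00292). The calls of Cdkn2c and Cdkn1c held in all 6 fits without 1 array. Cdkn3, a phosphatase that acts on CDKs and is known to peak in dividing cells, read 144, 103 and 22.9 on IMCD arrays 1 to 3 and 350.2, 406 and 798 on nonIMCD arrays 1 to 3, with -2.47 ± 0.60 (SE, adjusted p = 0.0355). That call held in 2 of the 6 fits and not after quantile normalization (adjusted p = 0.0566).

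The other Cip/Kip inhibitors did not pass. Cdkn1a (p21), a target of p53, had 3397, 3692 and 4192 on IMCD arrays 1 to 3 and 5825, 6573 and 4329.6 on nonIMCD arrays 1 to 3, below on every IMCD array with -0.55 (adjusted p = 0.105). Its dimmer probe set gave -0.10. Cdkn1b (p27), known from resting cells, read 10077, 10805 and 10272 on IMCD arrays 1 to 3 and 8451, 9296 and 7967 on nonIMCD arrays 1 to 3, above on every IMCD array with 0.28 (adjusted p = 0.173). A dimmer probe set of Cdkn1b went the other way and passed as lower, at -0.56 (adjusted p = 0.0378). Cdkn1b passed as higher under median centring (0.57, adjusted p = 0.0236). Cdkn2d (p19) had overlapping groups (-0.38, adjusted p = 0.269), and its second probe set gave 0.26.

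**Figure D3:**
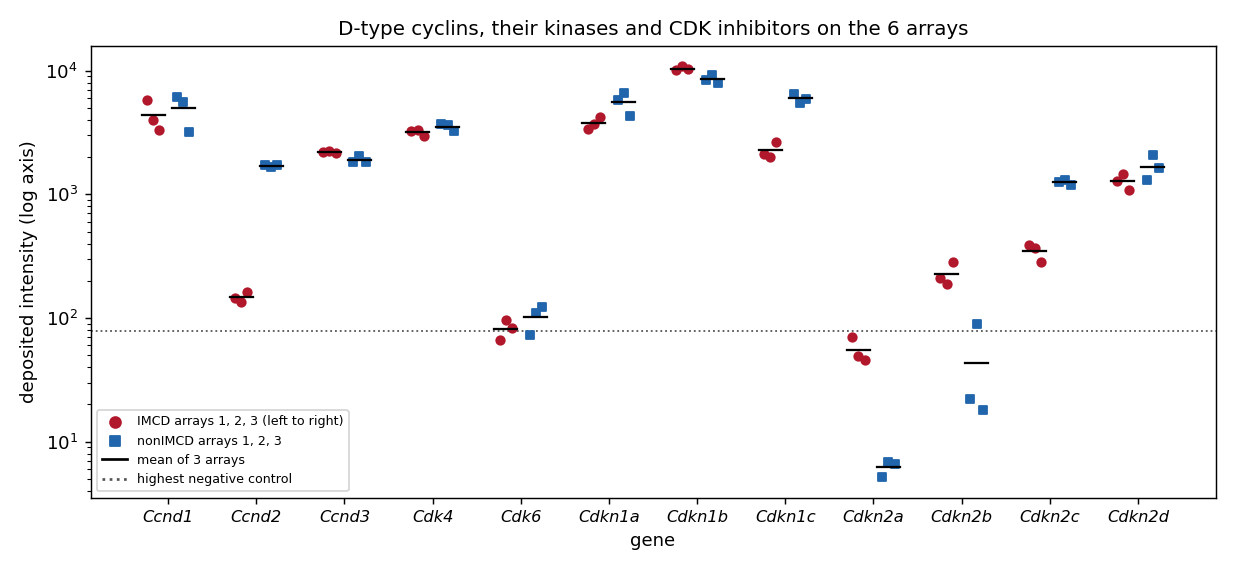
Deposited intensity (log y axis) of D-type cyclins, Cdk4, Cdk6 and the CDK inhibitors (x axis) on the 3 IMCD arrays (circles) and 3 nonIMCD arrays (squares), with fraction means and the highest negative control (dotted line). Ccnd2, Cdkn1c and Cdkn2c are lower on every IMCD array, Cdkn2a and Cdkn2b are higher, and Ccnd1, Cdk4, Cdk6 and Cdkn2d overlap.

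The CDK-activating phosphatases went in opposite directions. Cdc25b, which acts at the entry to mitosis, had 315, 315 and 273 on IMCD arrays 1 to 3 and 530.1, 1072 and 1917 on nonIMCD arrays 1 to 3. The IMCD arrays were alike and the nonIMCD arrays spread widely, and the difference was -1.73 ± 0.45 (SE, adjusted p = 0.0444), called in 1 of 6 fits without 1 array and not under median centring or quantile normalization (adjusted p = 0.0626 and 0.0733). Cdc25a, which acts in G1 and S phase, read 535, 420.1 and 508 on IMCD arrays 1 to 3 and 322, 249 and 242 on nonIMCD arrays 1 to 3, higher on every IMCD array (0.81 ± 0.17 SE, adjusted p = 0.0226) and called in 2 of the 6 fits.

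E2F factors gave 1 higher and 1 lower call among 7. E2f7, an atypical factor that represses E2F targets, had 269, 229 and 289 on IMCD arrays 1 to 3 and 112, 178 and 115 on nonIMCD arrays 1 to 3, higher in IMCD by 0.91 ± 0.21 (SE, adjusted p = 0.0298). E2f2, an activator, read 338, 338 and 367 on IMCD arrays 1 to 3 and 468, 582 and 769.9 on nonIMCD arrays 1 to 3, lower on every IMCD array, with -0.75 ± 0.20 (SE, adjusted p = 0.0483) and just under the threshold. Each of these calls held in 1 of 6 fits without 1 array, and E2f2 did not pass under median centring or quantile normalization. Differences for E2f1, E2f4, E2f5, E2f6 and E2f8 ranged from -0.79 (E2f8, at negative control level in IMCD) to 0.32 and did not pass, although E2f5 was a higher call with median centring and with quantile normalization (adjusted p = 0.0147 and 0.0474).

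DNA replication genes were lower for 3 of 11 members and higher for 1, with a median of -0.43 (-0.14 with median centring and -0.25 with quantile normalization). The lower genes are subunits of the Mcm helicase that opens replication origins. Mcm6 had 514, 429 and 442 on IMCD arrays 1 to 3 and 1013, 1118 and 924 on nonIMCD arrays 1 to 3, groups well apart with -1.11 ± 0.14 (SE, adjusted p = 0.00406) and a call in all 6 fits without 1 array. Mcm7 read 1421, 1409 and 1377 on IMCD arrays 1 to 3 and 2016, 2389.7 and 2273 on nonIMCD arrays 1 to 3, lower on every IMCD array, with -0.66 ± 0.12 (SE, adjusted p = 0.016). Mcm3 had 289.7, 289.8 and 299 on IMCD arrays 1 to 3 and 447, 398 and 523 on nonIMCD arrays 1 to 3, with -0.60 ± 0.14 (SE, adjusted p = 0.0323). The calls of Mcm7 and Mcm3 held in 2 and 1 of the 6 fits, median centring left neither, and quantile normalization left that of Mcm7. The remaining subunits of the helicase, Mcm2 (-0.43), Mcm4 (-0.18) and Mcm5 (-0.95), did not pass, although Mcm2 and Mcm5 were below on every IMCD array. Cdc45, which works with the helicase, had -0.61 (adjusted p = 0.11).

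Pcna, the sliding clamp of DNA polymerases that also serves in repair, was bright in both fractions, with 12579.5, 12489 and 13281 on IMCD arrays 1 to 3 and 12279.6, 11837 and 13064 on nonIMCD arrays 1 to 3. Its groups overlapped and the difference was 0.05 (adjusted p = 0.821), with a 95% interval of -0.24 to 0.33 and -0.13 after quantile normalization. Tyms, the thymidylate synthase that supplies dTTP, read 215, 201 and 186 on IMCD arrays 1 to 3 and 114, 149 and 127 on nonIMCD arrays 1 to 3. Every IMCD array of Tyms was above every nonIMCD array (0.57 ± 0.14 SE, adjusted p = 0.0401), with a call in 1 of the 6 fits without 1 array and none with an intensity trend (adjusted p = 0.184). Mcm8 and Mcm9, helicases of repair, had overlapping groups (0.23 and 0.12).

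Centromere proteins gave 3 lower and 0 higher calls among 17. Cenpe, the kinesin that moves chromosomes to the spindle equator, had 18.7, 15.5 and 8.93 on IMCD arrays 1 to 3 and 97.4, 129 and 73.2 on nonIMCD arrays 1 to 3. The IMCD values were at negative control level, and nonIMCD was at least 1.20-fold brighter (fitted difference -1.92 ± 0.23 SE, adjusted p = 0.00345). Cenpk, of the inner kinetochore, read 223, 174 and 154 on IMCD arrays 1 to 3 and 303, 274 and 355 on nonIMCD arrays 1 to 3, with -0.72 ± 0.18 (SE, adjusted p = 0.0407) and a call in 1 of 6 fits without 1 array. Cenpt passed (adjusted p = 0.0438) although both means were at negative control level, and no fold is given. Median centring and quantile normalization left neither Cenpk nor Cenpt lower. Cenpb and Cenpv lay below on every IMCD array with adjusted p = 0.0567 and 0.0577, and Cenpl and Cenpj above with adjusted p = 0.089 and 0.161. The latter pair passed as higher under median centring, and Cenpl after quantile normalization. Cenpf, a kinetochore protein of G2 and mitosis, had overlapping groups, with 433 on nonIMCD array 3 and 89.5 to 170.5 on the other 5. The 9 others, from Cenpa to Cenpx, ranged from -1.20 (Cenpw) to 0.35 (Cenpq) without passing, with the IMCD mean of Cenpw at negative control level.

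Of 7 genes of the anaphase-promoting complex, ubiquitin transfer and mitotic exit only the phosphatase Cdc14a passed. It had 557, 413 and 533 on IMCD arrays 1 to 3 and 1179.5, 859.8 and 986 on nonIMCD arrays 1 to 3, lower on every IMCD array, with -0.99 ± 0.19 (SE, adjusted p = 0.016), with a call in 5 of 6 fits and adjusted p = 0.0519 without nonIMCD replicate 1. The complex subunits Cdc16, Cdc23, Cdc26 and Cdc27, the ubiquitin-conjugating enzyme Cdc34 and the phosphatase Cdc14b ranged from -0.21 to 0.27. Of the 2 dimmer probe sets of Cdc34 1 passed as lower, at -0.89 (adjusted p = 0.039), with its IMCD mean at negative control level.

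The members outside those groups held calls in both directions. Cdk18, a kinase of the PCTAIRE family, had 2205, 3009.6 and 2266 on IMCD arrays 1 to 3 and 738, 795 and 507 on nonIMCD arrays 1 to 3. The groups were far apart (1.86 ± 0.23 SE, adjusted p = 0.00358), and a second probe set gave 1.90 (adjusted p = 0.00411). Of 21 other CDKs and partners Cdk8 of the Mediator complex (0.63, adjusted p = 0.0185) and the centrosome protein Cdk5rap2 (0.82, adjusted p = 0.0212) were also higher, and Cdk20 was lower (-0.88, adjusted p = 0.0461). These 3 calls held in 2, 2 and 0 of 6 fits without 1 array, that of Cdk18 in all 6, and Cdk20 did not pass under median centring or quantile normalization. Cdk14 and Cdk5 were higher calls under both of these scalings and Cdk17 under the first. The 17 others, among them Cdk7, which activates other CDKs and acts in transcription, the transcription kinase Cdk9 and the neuronal kinase Cdk5, ranged from -0.86 (Cdk5r2) to 0.79 (Cdk5r1), each of these extremes with 1 or both fractions at negative control level.

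Effectors of Cdc42, a GTPase of cell polarity and the actin skeleton, differed among themselves. Cdc42 itself read 30344, 35353 and 36639.9 on IMCD arrays 1 to 3 and 33942, 33773 and 38482 on nonIMCD arrays 1 to 3, with overlapping groups (-0.06, adjusted p = 0.816). Cdc42ep2 had 12895, 11594 and 9933 on IMCD arrays 1 to 3 and 3791, 3554 and 3606 on nonIMCD arrays 1 to 3, higher on every IMCD array by 1.64 ± 0.14 (SE, adjusted p = 0.00127). Its relative Cdc42ep3 read 533, 555 and 533 on IMCD arrays 1 to 3 and 1707, 1699 and 1486 on nonIMCD arrays 1 to 3, lower on every IMCD array, with -1.56 ± 0.12 (SE, adjusted p = 0.000899). Cdc42ep1 was lower as well (-0.86, adjusted p = 0.00466), Cdc42ep4 and Cdc42ep5, of which the second was a higher call under median centring and quantile normalization, did not pass (-0.24 and 0.70), and the calls of the 3 effectors that passed held in all 6 fits without 1 array. The kinase Cdc42bpb (0.88, adjusted p = 0.0146) and the small effector Cdc42se1 (0.65, adjusted p = 0.017) were higher, with calls in 4 and 2 of the 6 fits. A dimmer probe set of Cdc42se1 gave 0.18 and did not pass (adjusted p = 0.406), while that of Cdc42bpb passed (1.13, adjusted p = 0.00709). The 7 others with CDC names (Cdc37, Cdc37l1, Cdc40, Cdc5l, Cdc73, Cdc123 and the kinase Cdc42bpa) ranged from -0.23 to 0.15. The last 4 members (Mcm3ap, Cdkn2aip, Cdkn2aipnl and Aurkaip1) ranged from -0.52 to 0.17, and did not pass, although Aurkaip1 was a higher call under median centring (adjusted p = 0.0498) and Mcm3ap a lower call with an intensity trend (adjusted p = 0.0219).

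**Figure D4:**
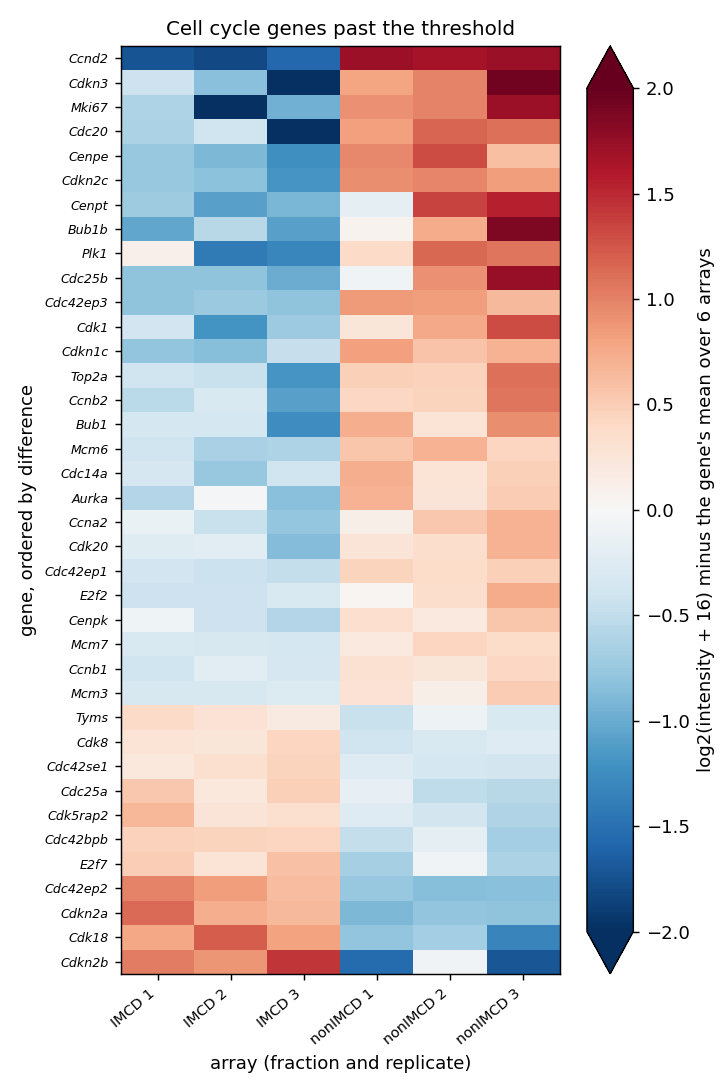
Log2(intensity + 16) of the 38 members that passed, minus the gene's mean over the 6 arrays (colour, limited to 2 in either direction), by array (x axis) and gene ordered by difference (y axis). The 27 lower genes have their lowest values in IMCD, and nonIMCD array 3 holds the highest value for Cdkn3, Mki67, Bub1b and Cdc25b.

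The lower members also varied between arrays of a fraction. Among the 27, nonIMCD array 3 had the highest value of all 6 arrays for 17 and IMCD array 3 the lowest for 15. The same counts over all genes are not given, and whether the pattern was particular to these members was not tested. The mean log2 value over the 13 mitotic genes was 7.87, 7.71 and 7.37 on IMCD arrays 1, 2 and 3, and 8.33, 8.44 and 8.79 on nonIMCD arrays 1, 2 and 3. The fractions were apart, and the ranges within them were of similar width. For the 11 replication genes the same means were 9.08, 9.02 and 9.10 in IMCD and 9.37, 9.33 and 9.48 in nonIMCD, a narrower gap with little spread.

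Other genes of the pathway were taken from a list of 124 regulators, replication factors and spindle genes, of which 111 were measured. Of these 19 (17.1%) were lower and 6 (5.41%) higher in IMCD, beside 15.7% and 10.0% of all genes, and their median difference was -0.29. The share of lower genes was near that of all genes. Median centring gave 10 lower and 21 higher of the 111, beside 10.2% and 20.2% of all genes. Quantile normalization gave 11 lower and 11 higher of the 111, beside 12.8% and 11.7% of all genes. The lower count was 15, 12, 11, 10, 9 and 10 without each array in the order used above, and the higher count 3, 4, 3, 3, 3 and 4.

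The largest lower differences included genes of chromosome movement. Kif22, a kinesin that binds chromosome arms, had 156, 79.7 and 76.7 on IMCD arrays 1 to 3 and 484, 507 and 571 on nonIMCD arrays 1 to 3, with fractions well apart (-2.22 ± 0.27 SE, adjusted p = 0.00346). The kinesin Kif2c, the kinase Melk and the kinetochore subunit Spc25 were at negative control level in IMCD, with nonIMCD at least 1.90-fold, 2.31-fold and 2.83-fold brighter (adjusted p = 0.0155, 0.0292 and 0.0111). Kif20a, a kinesin of cell separation, was lower as well (-1.39, adjusted p = 0.0433). Calls of Kif22 and Spc25 held in all 6 fits without 1 array, those of Kif2c, Melk and Kif20a in 4, 2 and 1.

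The 6 higher genes of the list (5.41%, against 10.0% of all genes) had various roles. Wee1, the kinase that inhibits Cdk1, read 9660.3, 9043 and 6814 on IMCD arrays 1 to 3 and 1952, 1774 and 1753 on nonIMCD arrays 1 to 3. The fractions were far apart (2.20 ± 0.17 SE, adjusted p = 0.000906), from a probe set that may match more than 1 transcript. Ccng2, a cyclin known from arrested cells, had 7217, 6730.5 and 6476 on IMCD arrays 1 to 3 and 3103, 2368 and 2709 on nonIMCD arrays 1 to 3, higher by 1.32 ± 0.15 (SE, adjusted p = 0.00264). Lin9 of the MuvB complex (1.03, adjusted p = 0.0211), the retinoblastoma relative Rbl1 (0.79, adjusted p = 0.0424) and the stress gene Gadd45a (0.73, adjusted p = 0.0148) were also higher, with calls in 2, 0 and 5 of the 6 fits. Chromatin assembly factor Chaf1b was the remaining higher gene (0.56, adjusted p = 0.0406). The retinoblastoma gene Rb1 (-0.10, adjusted p = 0.593) and Myc (-0.22, adjusted p = 0.417) did not pass.

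**Figure D5:**
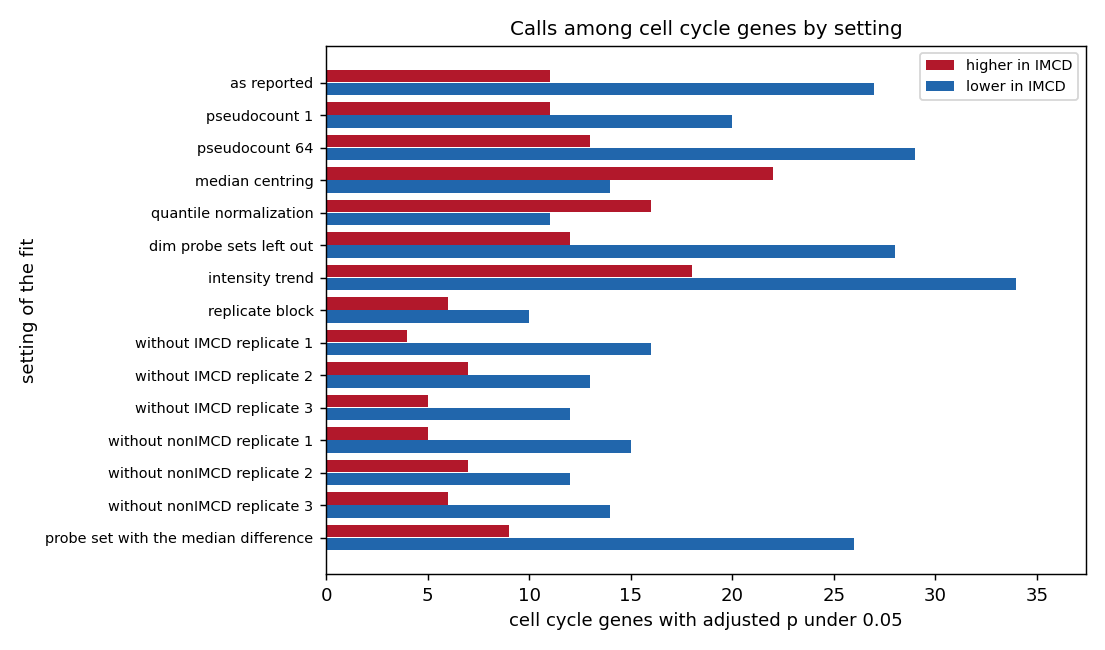
Number of the 118 cell cycle genes called higher or lower in IMCD (x axis) under each setting of the fit (y axis). Lower calls outnumber higher ones in every setting but median centring (14 against 22) and quantile normalization (11 against 16).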

How the data were processed

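RNA of 3 IMCD and 3 nonIMCD preparations was measured on 6 Affymetrix Rat 230 2.0 arrays, with about 3 µg of total RNA for each, per the labels. The authors deposited linear intensities, 1 for each probe set and array, already scaled: the mean after trimming 2% at each end was 1000.3 to 1000.4 on every array. No source used here names the software. Scaling to 1 average makes each difference relative to that average. Arrays of a fraction correlated at r = 0.956 to 0.966 over probe sets, and arrays of different fractions at 0.901 to 0.91. Array number limits the precision. The p-values measure the spread between arrays of the same fraction, without pairing, as the labels do not say which arrays share an isolation.

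The 57 control probe sets were left out and 31042 tested. Names came from the platform annotation of the probe sets (20826 with 1 symbol, 436 with several and 9780 with none). All 118 members were found by gene identifier in the RefSeq annotation of GRCr8, with 0 symbols changed. Values were analysed as log2(value + 16), which understates differences of dim signals, with limma 3.58.1 in R 4.3.3 (lmFit, eBayes, two-sided, no covariate, no filter) and Benjamini-Hochberg adjustment over all probe sets tested. The fit was run on simulated data with large changes in bright probe sets only. That run cannot speak for the recovery of dim signals or small differences. Negative control level means a mean at or under 78.4, the highest value of the 3 probe sets for the bacterial trp transcript: 6 members were there in both fractions, 6 in IMCD and 2 in nonIMCD. Where 1 fraction was there, "at least" compares the other with that level on log2(value + 16).

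Named genes were the members past the threshold that differed at least 2-fold, a fixed set of cyclins, CDKs, inhibitors and proliferation markers, and of the other pathway genes the 5 with the largest difference past the threshold in each direction. Further members, and Chaf1b, Rb1 and Myc, were named after their values were seen, to account for every role. The members and lists were chosen with earlier results of these data known. Alternatives were pseudocounts of 1 and 64, median centring, quantile normalization, leaving out probe sets with a mean log2 value under 6, an intensity trend, the replicate number as a block, leaving out each array, and another probe set per gene.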

Additional observations from a re-analysis of the deposited data

How the results depend on the processing

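The counts of higher and lower members were within 1.5 times of 11 and 27 with pseudocounts of 1 and 64, without dim probe sets and with the probe set of median difference. Median centring gave 22 higher and 14 lower, quantile normalization 11 lower, an intensity trend 18 higher, and the replicate block 6 higher and 10 lower. Leaving out 1 array gave 4 to 7 higher and 12 to 16 lower members. Among other pathway genes (6 higher, 19 lower) median centring gave 21 higher and 10 lower, quantile normalization 11 higher and 11 lower, an intensity trend 11 higher, the replicate block 3 higher and 9 lower, and leaving out 1 array 3 to 4 higher and 9 to 15 lower. Of these settings, shares of all genes are given above for median centring and quantile normalization only. The cause of the changes in the counts was not tested, and the fits without 1 array also had fewer arrays.

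The members' median difference, -0.19, became 0.10 with median centring, -0.088 with quantile normalization, and -0.23 to -0.17 without 1 array. Genes whose sign turned were Ccnd1 (0.12 under median centring, and -0.45 to 0.017 when 1 array was left out, above 0 without IMCD replicate 3 or nonIMCD replicate 1), Ccne1 (0.063 and 0.048 under median centring and quantile normalization), Cdk4 (0.14) and Cdk6 (0.031) under median centring, and Pcna (-0.13) after quantile normalization. None of these passed the test.

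Arrays that share a replicate number did not deviate together beyond a correlation of 0.1: the pairing check gave r = 0.04 to 0.06 for the same number and -0.04 to 0.00 for other numbers, so the numbers were not taken to pair the arrays. Each array did correlate best with its own number. With the replicate number as a block, 9 of the 27 lower and 6 of the 11 higher calls remained. Dim signals limit the members near the negative controls, whose size changes with the pseudocount.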
